A study of Mus musculus with 16 samples.

Results

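Fc receptors bind the constant region of antibodies. Here 9 mouse genes of this kind were followed in tumor-associated macrophages (TAMs) that carry or lack Tim-4, a phosphatidylserine receptor used to recognize tissue-resident macrophages. The 9 genes were taken as a family by their names and roles, a rule that reads no measured value, although the family was picked with earlier results of these data known. They are the activating Fcγ receptors Fcgr1, Fcgr3 and Fcgr4, the inhibitory Fcγ receptor Fcgr2b, the shared signaling chain Fcer1g, the neonatal Fc receptor Fcgrt, the Fc receptor-like gene Fcrls, the low-affinity IgE receptor Fcer2a and the IgM receptor Fcmr. All 9 were among the 55604 genes counted, and 8 of them, all but Fcer2a, had enough counts to be among the 16861 genes tested. RNA was sequenced from 8 libraries, 4 from Tim-4+ TAMs and 4 from Tim-4- TAMs, which carry the pair numbers 793, 784, 783 and 779. Both subsets came from the same kind of animal: female C57BL/6 mice, 6 to 8 weeks old, given luciferase-labeled ID8 cells, which derive from mouse ovarian surface epithelium and form tumors, into the peritoneal cavity. TAMs were taken from the peritoneal cavity 6 to 7 weeks after inoculation. By the study's methods for TAM subsets, mononuclear cells from a Ficoll gradient gave Tim-4+ TAMs by magnetic beads against Tim-4, and the remaining cells gave Tim-4- TAMs by magnetic beads against F4/80, so that the subsets were not selected in the same way. No animal carried an engineered allele according to the labels. The labels do not say whether a pair is a single mouse or a pool. With the pair in the fit, the p-values below therefore measure the change within pairs against its spread between these 4 pairs of samples only.

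In mice, the activating Fcγ receptors do not signal alone. Each binds IgG with its own ligand-binding chain and is held at the surface by the FcRγ chain, the product of Fcer1g, whose ITAM motif recruits the kinase Syk and starts phagocytosis and the oxidative burst. Fcgr2b carries an ITIM motif that recruits the phosphatase SHIP-1 and restrains the same pathway. Fcgrt pairs with β2-microglobulin inside the cell and returns IgG and albumin to the circulation. Fcrls encodes a protein with immunoglobulin and scavenger receptor domains that is best known from microglia, while Fcer2a and Fcmr are mainly B-cell receptors.

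Promoter sequences are shown for the 3 activating receptors and Fcrls, because the activating receptors share a feature near their start sites and Fcrls is the member that differed most between the subsets. They run 5′ to 3′ on the strand of the gene, from 250 bases before to 50 bases after the start listed by RefSeq in GRCm38.p6, and all 9 members had an entry. Capitals mark GAGGAA, the core letters bound by PU.1, or their reverse complement TTCCTC. The windows are chr3:96293920-96294219 (minus strand) for Fcgr1, chr1:171059354-171059653 (minus strand, the first of 2 starts listed) for Fcgr3, chr1:171018676-171018975 (plus strand) for Fcgr4 and chr3:87263475-87263774 (minus strand) for Fcrls.
Fcgr1: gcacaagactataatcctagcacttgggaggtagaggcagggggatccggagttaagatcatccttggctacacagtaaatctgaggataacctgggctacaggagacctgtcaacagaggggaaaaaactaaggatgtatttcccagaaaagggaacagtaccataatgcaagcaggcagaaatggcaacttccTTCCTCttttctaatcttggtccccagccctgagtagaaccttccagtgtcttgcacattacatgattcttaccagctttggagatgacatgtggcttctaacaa
Fcgr3: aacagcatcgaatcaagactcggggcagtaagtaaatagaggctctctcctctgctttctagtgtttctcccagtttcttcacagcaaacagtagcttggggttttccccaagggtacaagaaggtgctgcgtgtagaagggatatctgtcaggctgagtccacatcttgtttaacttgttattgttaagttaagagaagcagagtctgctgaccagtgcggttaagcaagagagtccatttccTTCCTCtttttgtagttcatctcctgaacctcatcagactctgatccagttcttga
Fcgr4: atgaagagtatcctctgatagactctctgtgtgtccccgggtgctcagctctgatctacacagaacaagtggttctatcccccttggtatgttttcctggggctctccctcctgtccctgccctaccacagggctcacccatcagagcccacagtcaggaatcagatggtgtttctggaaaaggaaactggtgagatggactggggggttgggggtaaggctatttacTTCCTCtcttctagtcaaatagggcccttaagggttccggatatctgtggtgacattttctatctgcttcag
Fcrls: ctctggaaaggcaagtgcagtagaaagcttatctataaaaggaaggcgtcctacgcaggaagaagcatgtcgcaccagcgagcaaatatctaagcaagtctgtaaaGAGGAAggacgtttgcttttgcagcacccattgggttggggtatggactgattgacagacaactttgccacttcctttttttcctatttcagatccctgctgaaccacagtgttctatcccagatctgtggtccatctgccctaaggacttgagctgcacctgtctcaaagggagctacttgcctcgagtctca

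The GAGGAA letters lay on the strand opposite to the gene at -55 in Fcgr1, -6 in Fcgr3 and -22 in Fcgr4, counted from the start site to the first letter of the match, and on the strand of the gene at -144 in Fcrls. The fifth member with a match was Fcmr, at -36. Of the 9 member promoters 5 held these letters on either strand, against 28.3% of the 27025 promoters of the same length in the table. Fcgr1 holds the match and did not pass the test below, and Fcer1g, which rose, does not hold it, so the letters did not sort the members by how they changed. Other motifs were searched in the same way on both strands. The site of GATA factors, AGATAA, was in Fcrls alone among the members and in 11.4% of all promoters. The STAT site TTCNNNGAA was in Fcgr1 alone, against 8.47%. The RUNX site TGTGGT was in Fcgr4, Fcrls, Fcer1g and Fcer2a, against 16.9%, and the C/EBP site TTGCNNAA in Fcgr3 and Fcgrt, against 10.8%. A match describes the letters only and is not a binding site.

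The libraries held 53527928 to 57768202 counts on genes in Tim-4+ TAMs against 55618306 to 69594245 in the Tim-4- subset, so that 3 counts, taken as the lowest level that could be seen, correspond to 0.0431 to 0.0560 CPM. CPM here are counts scaled to library size with edgeR's TMM factors, and values of the 4 libraries of a subset are given in the order of pairs 793, 784, 783 and 779. Timd4, which encodes Tim-4, followed the labels in every pair, with a log2 fold change of 6.09 (SE 1.07). Its level was 1160, 1743, 524 and 1166 CPM in Tim-4+ TAMs against 84.9, 11.1, 22.3 and 1.96 CPM in the Tim-4- subset. The log2 ratio was 3.77, 7.29, 4.56 and 9.19, so the subsets were set apart less in pairs 793 and 783. Macrophage markers were present in every library: of the 8 listed, Csf1r and Cd14 were not analysed here, and among the other 6 Cd68, Adgre1 (the F4/80 gene), Itgam, Lyz2 and Mertk were higher and Mrc1 was lower in Tim-4+ TAMs. The summed level of these 6 ranged from 40269 to 53042 CPM in Tim-4+ TAMs and from 18522 to 30517 CPM in Tim-4- TAMs. Tumor and mesothelial cell markers went the other way, with 8 of 9 measured markers lower in Tim-4+ TAMs (Msln was not analysed here) and sums of 103 to 372 CPM against 397 to 1737 CPM. In bulk RNA, fewer cells of a type and less RNA per cell cannot be told apart.

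Among the 8 members tested, 3 rose in Tim-4+ TAMs (Fcgr3, Fcgr4 and Fcer1g), 2 fell (Fcrls and Fcgrt) and 3 did not pass the test (Fcgr1, Fcgr2b and Fcmr), at an adjusted p under 0.05 in edgeR's quasi-likelihood test, fitted with the pair as a block and adjusted by Benjamini-Hochberg over all genes tested. Over all 16861 genes, 8.97% were higher and 8.43% lower by the same rule. The CPM ranges of the subsets did not overlap for 4 members, namely Fcgr3, Fcgr4, Fcer1g and Fcrls, against 12.8% of all genes. With a change of at least 2-fold added to the rule, Fcgr4 and Fcrls remained, against 3.8% of all genes higher, 5.79% lower and 9.59% in either direction. The sign of the log2 ratio was the same in all 4 pairs for 6 members, against 42.6% of all genes. The median log2 fold change of the 8 members was -0.01. The plot of all members by library shows these values pair by pair.

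**Figure D1:**
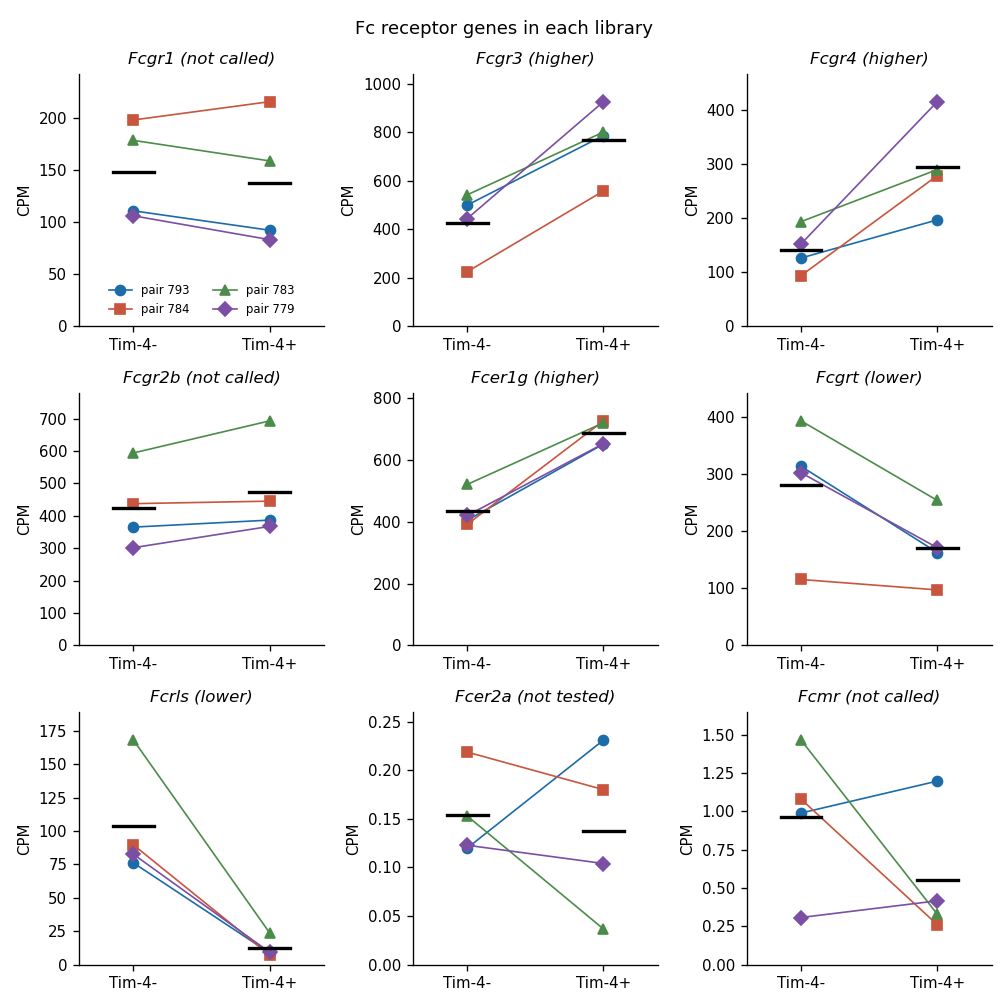
Level of each of the 9 Fc receptor genes in CPM (y axes, linear and starting at 0) in Tim-4- and Tim-4+ TAMs, with a line for each pair, a symbol for each library and a black bar for the mean of 4 libraries. Fcgr3, Fcgr4 and Fcer1g rose in every pair, Fcrls fell from 76.2 or more to 23.7 or less, and Fcer2a was at 0.231 CPM at most.

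Of the 3 ligand-binding chains of the activating receptors, Fcgr3 and Fcgr4 rose in Tim-4+ TAMs and Fcgr1 did not pass the test. Fcgr3 encodes FcγRIII, a low-affinity IgG receptor of phagocytes and NK cells (ENSMUSG00000059498.13, chromosome 1, 171051174 to 171064935 in GRCm38, minus strand). Its level was 786, 558, 801 and 926 CPM in Tim-4+ TAMs against 499, 225, 541 and 444 CPM in the Tim-4- subset. Both subsets had their lowest value in pair 784, and even this Tim-4+ library lay above the highest Tim-4- library. The means were 768 ± 153 and 427 ± 141 CPM (SD, n = 4), the log2 fold change was 0.90 (SE 0.16), and the adjusted p was 0.0135 (edgeR, Benjamini-Hochberg). By pair, the log2 ratio was 0.66, 1.31, 0.56 and 1.06, so the rise was larger in pairs 784 and 779 than in the other two, the pairs in which Timd4 differed less. The part of this in the result was not tested.

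Fcgr4 encodes FcγRIV, an activating receptor of myeloid cells with intermediate affinity for certain IgG subclasses (ENSMUSG00000059089.4, chromosome 1, 171018920 to 171029761 in GRCm38, plus strand). It was measured at 197, 278, 290 and 415 CPM in Tim-4+ TAMs against 126, 93.5, 193 and 152 CPM in the Tim-4- subset. The lowest Tim-4+ library, that of pair 793, stood just above the highest Tim-4- library, that of pair 783. Means of 295 ± 90.3 and 141 ± 42.2 CPM (SD, n = 4) gave a log2 fold change of 1.06 (SE 0.20), with an adjusted p of 0.0154 (edgeR, Benjamini-Hochberg). The log2 ratio of each pair, 0.64, 1.57, 0.58 and 1.45, followed the order seen for Fcgr3, with the larger rises again in pairs 784 and 779. Fcgr4 lies 21413 bases from Fcgr3 on the opposite strand and 42373 bases from Fcgr2b.

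Fcgr1 encodes FcγRI, the high-affinity IgG receptor (ENSMUSG00000015947.10, chromosome 3, 96282909 to 96293969 in GRCm38, minus strand). Its values were 92.1, 216, 159 and 83.0 CPM in Tim-4+ TAMs against 111, 198, 178 and 106 CPM in the Tim-4- subset. The subsets overlapped through their whole range, and the pairs differed more from each other than the subsets did, with pairs 784 and 783 high in both. The means of 137 ± 62.1 and 148 ± 46.8 CPM (SD, n = 4) gave a log2 fold change of -0.17 (SE 0.12) and an adjusted p of 0.359 (edgeR, Benjamini-Hochberg). Fcgr1 was higher in Tim-4+ TAMs in 1 of 4 pairs. In 4 of 4 pairs the log2 ratio of Fcgr3 was above that of Fcgr1, and so was that of Fcgr4, but the difference between genes was not tested.

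The inhibitory receptor did not pass the test. Fcgr2b (ENSMUSG00000026656.15, chromosome 1, 170958617 to 170976547 in GRCm38, minus strand) was measured at 387, 445, 693 and 367 CPM in Tim-4+ TAMs against 365, 438, 594 and 302 CPM in the Tim-4- subset. Every Tim-4+ library was slightly above its partner, while the spread between pairs was wide, with pair 783 highest in both subsets. The means were 473 ± 150 and 425 ± 126 CPM (SD, n = 4), the log2 fold change was 0.15 (SE 0.12) and the adjusted p was 0.415 (edgeR, Benjamini-Hochberg). Its sign depended on scaling: with libraries scaled by total counts, which put the median over all tested genes at -0.36 on the log2 scale, the value for Fcgr2b was -0.20 with an adjusted p of 0.163.

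Transcripts of Fcgr3 and Fcgr2b are alike in part, which bears on how their reads can be assigned. Of the 1733 windows of 50 bases in the annotated exons of Fcgr3, 166 (9.58%) were found in Fcgr2b as well, and 6.95% of the windows of Fcgr2b occurred in another gene. The longest shared run of coding transcripts, 129 bases, lies in exons 3 and 4 of both (chr1:171057691-171057792 and chr1:171054167-171054193 for Fcgr3, chr1:170967980-170968081 and chr1:170966674-170966700 for Fcgr2b, all minus strand in GRCm38), within the coding sequence, and is shown because a 50-base read inside it fits both genes.
Fcgr3 and Fcgr2b, shared: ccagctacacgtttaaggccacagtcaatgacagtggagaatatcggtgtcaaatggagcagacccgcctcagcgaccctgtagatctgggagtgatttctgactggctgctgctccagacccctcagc
The share of windows found elsewhere was 0 for Fcgr1, Fcgr4, Fcer1g, Fcgrt, Fcrls and Fcmr. In the lanes listed by gene identifier, reads that did not align uniquely were counted apart from the genes, as a total per lane. These totals do not name genes, so how many reads of the shared stretch were set aside cannot be seen. The values of Fcgr3 and Fcgr2b are therefore less certain than those of the other members.

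Because the genes differ in length, the makeup of the Fcγ receptor transcripts was taken per kilobase of annotated exon. Fcgr3 made up the largest share in every library, with 54.4 ± 7.42% of the summed CPM per kilobase of the 4 Fcγ receptors in Tim-4+ TAMs against 49.5 ± 9.55% in the Tim-4- subset (SD, n = 4). On average Fcgr4 followed with 28.6 ± 5.52% against 22.8 ± 2.60%. Fcgr2b held 10.2 ± 2.97% against 15.3 ± 4.47%, and Fcgr1 6.80 ± 3.68% against 12.4 ± 6.13%. In the Tim-4- library of pair 784, however, Fcgr4 was smallest, with 20.9% against 21.5% for Fcgr1 and 21.2% for Fcgr2b. In all 4 pairs Fcgr3 and Fcgr4 took a larger share, and Fcgr1 and Fcgr2b a smaller share, in the Tim-4+ library than in its partner. The summed activating receptors over Fcgr2b came to 9.65, 8.14, 6.29 and 14.1 in Tim-4+ TAMs against 6.83, 3.71, 5.21 and 8.01 in the Tim-4- subset. This ratio of levels per kilobase was higher in the Tim-4+ library of every pair, although the ranges of the subsets overlapped. It depends on length: in plain counts the mean ratio was 2.70 ± 0.878 against 1.76 ± 0.507 (SD, n = 4). The shares depend on length as well, with 5790 bases of annotated exon in Fcgr2b against 1736 in Fcgr3. In plain counts Fcgr2b held more than Fcgr3 in the Tim-4- libraries of pairs 784 (45.9% against 23.6%) and 783 (39.4% against 35.9%). The makeup is a description, without a test.

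**Figure D2:**
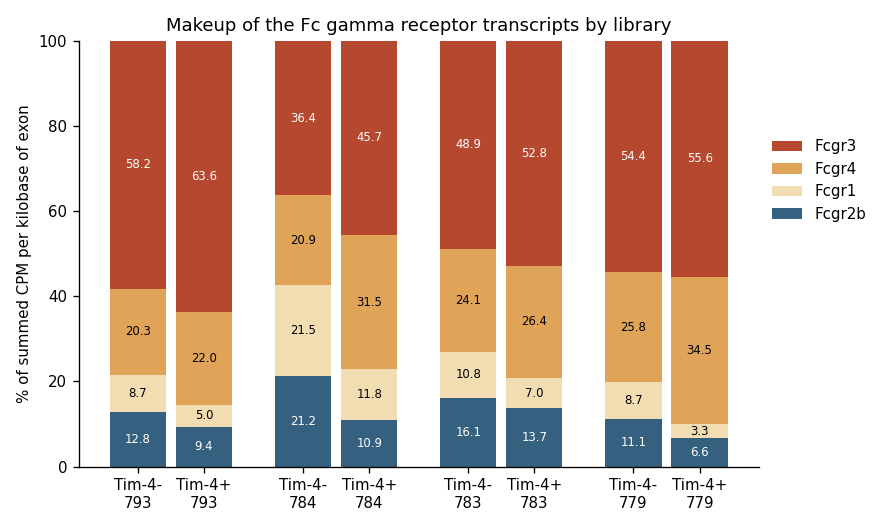
Share of each Fcγ receptor gene in the summed CPM per kilobase of exon of the 4 Fcγ receptors (y axis, percent), with a stacked bar for each of the 8 libraries, side by side by pair. In every pair the Fcgr2b share was smaller in the Tim-4+ library, for example 10.9% against 21.2% in pair 784, and the Fcgr4 share was larger, for example 34.5% against 25.8% in pair 779.

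The shared chain rose as Fcgr3 and Fcgr4 did, with less spread between libraries. Fcer1g, needed for the surface expression of the activating receptors and of several C-type lectins (ENSMUSG00000058715.11, chromosome 1, 171229572 to 171234365 in GRCm38, minus strand), was measured at 652, 727, 721 and 654 CPM in Tim-4+ TAMs against 405, 392, 521 and 421 CPM in the Tim-4- subset. No Tim-4- library reached the lowest Tim-4+ library. From means of 689 ± 41.3 and 435 ± 58.9 CPM (SD, n = 4), the log2 fold change came to 0.67 (SE 0.13, adjusted p 0.0161 by edgeR, Benjamini-Hochberg), and the log2 ratio in the pairs was 0.69, 0.89, 0.47 and 0.64. Per kilobase, Fcer1g over the summed activating receptors was 1.16, 1.33, 1.10 and 0.835 in Tim-4+ TAMs against 1.08, 1.60, 1.12 and 1.15 in the Tim-4- subset. This ratio was higher in the Tim-4+ library in pair 793 and lower in the other 3 pairs.

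The calls of these 3 rising genes rested on the pairing and on single pairs. Without the pair in the fit, the adjusted p was 0.123 for Fcgr3, 0.0718 for Fcgr4 and 0.0597 for Fcer1g, with log2 fold changes of 0.85, 1.06 and 0.66. Leaving out pair 784 gave log2 fold changes of 0.76, 0.89 and 0.59 (adjusted p 0.0807, 0.0850 and 0.0910), and leaving out pair 779 gave 0.84, 0.92 and 0.68 (adjusted p 0.0613, 0.0693 and 0.0615). Without pair 793 the call of Fcer1g was lost as well (0.67, adjusted p 0.0551), and with total counts per library its value was 0.31 (adjusted p 0.0554). Beside these rises stood the higher macrophage markers, 5 of 6, including Cd68 (log2 fold change 1.34), Adgre1 (1.28) and Itgam (1.24), whose part in the result was not tested.

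**Figure D3:**
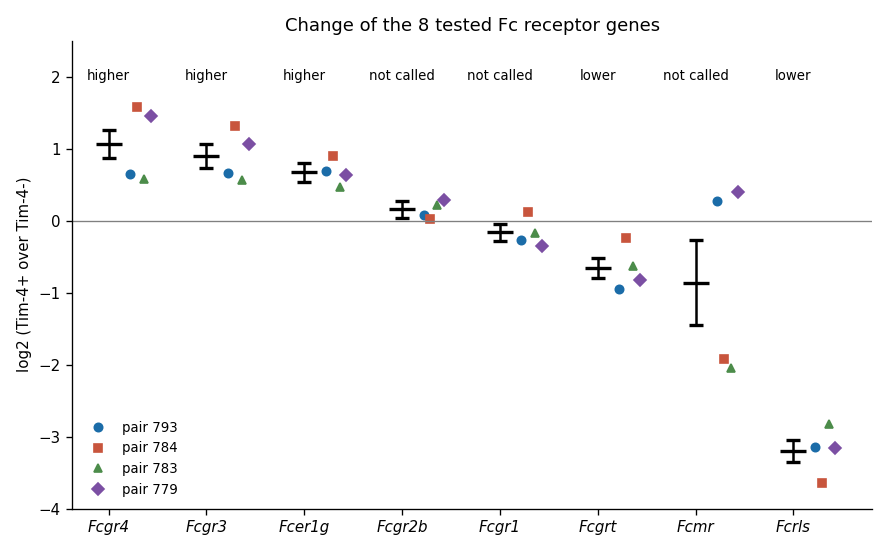
Log2 fold change of the 8 tested members between Tim-4+ and Tim-4- TAMs (y axis), as the fitted value (black bar) with its standard error and as the log2 ratio of CPM in each pair (colored symbols). Fcrls stands apart at a fitted value of -3.20. The fitted values of the members other than Fcrls and Fcmr lie between -0.66 and 1.06. The pairs of Fcmr, and those of Fcgr1, lie on both sides of 0.

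The neonatal Fc receptor fell while its partner rose. Fcgrt (ENSMUSG00000003420.8, chromosome 7, 45092990 to 45103851 in GRCm38, minus strand) was measured at 163, 97.1, 254 and 171 CPM in Tim-4+ TAMs against 314, 115, 393 and 302 CPM in the Tim-4- subset. Pair 784 was low in both subsets, so the ranges overlapped although every Tim-4+ library was below its partner, with log2 ratios of -0.95, -0.25, -0.63 and -0.82. The means of 171 ± 64.3 and 281 ± 118 CPM (SD, n = 4) gave a log2 fold change of -0.66 (SE 0.14) and an adjusted p of 0.0202 (edgeR, Benjamini-Hochberg). B2m, which encodes β2-microglobulin and also pairs with MHC class I, was at 4382 ± 760 CPM in Tim-4+ TAMs against 2315 ± 162 CPM in the Tim-4- subset, with a log2 fold change of 0.91 (adjusted p 0.0135). Per kilobase, the ratio of B2m to Fcgrt was 60.8, 118, 33.9 and 75.3 in Tim-4+ TAMs against 16.6, 51.2, 13.8 and 20.0 in the Tim-4- subset. It was higher in the Tim-4+ library of every pair.

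The call of Fcgrt was lost without the pair in the fit (log2 fold change -0.72, adjusted p 0.334) and without pair 793, 784 or 779 (-0.56, -0.80 and -0.62, with adjusted p values of 0.0759, 0.0598 and 0.0778). The tumor and mesothelial markers, with summed levels of 397, 1203, 800 and 1737 CPM in Tim-4- TAMs and 103, 187, 372 and 206 CPM in Tim-4+ TAMs, fell in the same direction as Fcgrt. Between the Tim-4- libraries the orders differed, with Fcgrt lowest in pair 784, where the marker sum was second highest. The part of these cells in the fall of Fcgrt was not tested.

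Fcrls was the member that differed most between the subsets. Its gene (ENSMUSG00000015852.13) spans 87250758 to 87263738 of chromosome 3 in GRCm38, on the minus strand. Its level was 8.59, 7.12, 23.7 and 9.21 CPM in Tim-4+ TAMs against 76.2, 89.7, 168 and 82.6 CPM in the Tim-4- subset. The pair with the highest value in each subset was 783, and the highest Tim-4+ library was still well below the lowest Tim-4- library. The means were 12.1 ± 7.73 and 104 ± 43.0 CPM (SD, n = 4), a log2 fold change of -3.20 (SE 0.15), that is 9.16-fold lower in Tim-4+ TAMs, with an adjusted p of 0.000290 (edgeR, Benjamini-Hochberg). The log2 ratio was -3.14, -3.65, -2.83 and -3.16 in the 4 pairs, so Fcrls fell by a similar amount in each although its level varied between pairs. By log2 fold change it ranked number 53 from the lowest among the 16861 genes tested.

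The call of Fcrls held under all 13 alternative settings, with log2 fold changes from -3.55 to -3.05 and a highest adjusted p of 0.0297, reached without the pair in the fit. No other member was called under all of them. Tumor and mesothelial markers were lower in Tim-4+ TAMs as well, and their summed level was lowest among the Tim-4- libraries in pair 793 (397 CPM), as was Fcrls, but highest in pair 779 (1737 CPM), where Fcrls was at 82.6 CPM against 168 CPM in pair 783. The part of these cells in the result was not tested.

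**Figure D4:**
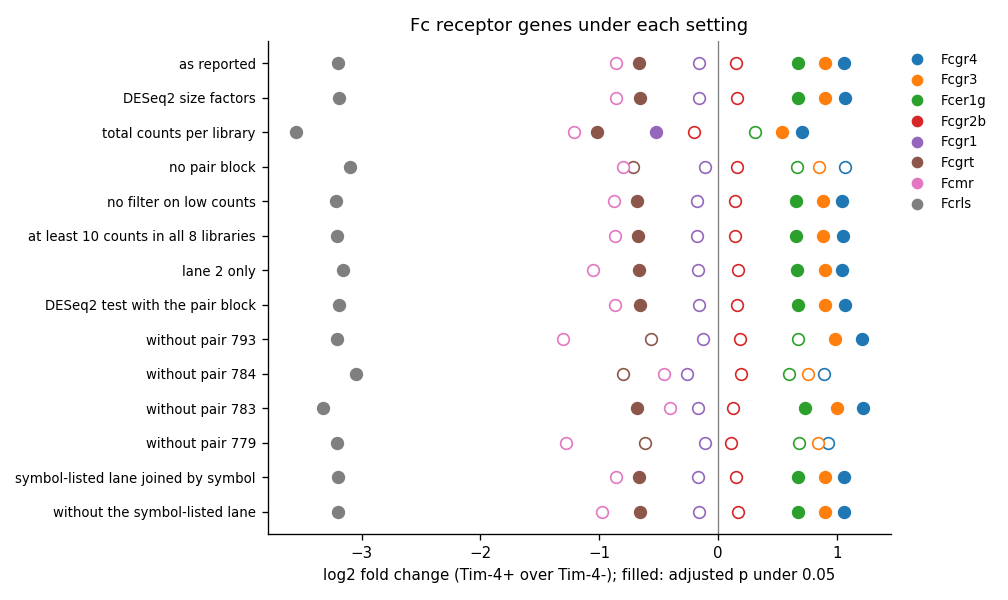
Log2 fold change (x axis) of the 8 tested members under the reported setting and each of 13 alternatives (y axis), with filled symbols where the adjusted p was under 0.05. Fcrls is filled throughout, while Fcgr3, Fcgr4, Fcer1g and Fcgrt are open without the pair block and without pair 784 or 779.

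By a rule that took the smallest root mean square difference of log2 CPM, after each gene's mean was removed, over the 8 libraries, the 5 genes most like Fcrls were Amz1 (0.26), Paqr8 (0.39), Gdf3 (0.39), Cd4 (0.41) and Ccr2 (0.45). Amz1 encodes a metallopeptidase and was at 2.20 ± 1.96 CPM in Tim-4+ TAMs against 17.7 ± 11.2 CPM in the Tim-4- subset (SD, n = 4). Ccr2, the chemokine receptor by which monocytes leave the bone marrow, was at 11.0 ± 4.13 CPM against 128 ± 15.5 CPM. Cd4 was at 0.813 ± 0.644 CPM against 4.80 ± 1.83 CPM. Of the other T-cell markers, Cd3d, Cd3e, Cd3g, Cd8a, Thy1 and Trbc2 did not pass the count filter. Lck passed it but was not called, and the median log2 fold change of the 2 tested markers, Cd4 and Lck, was -2.21. The summed level of the 8 T-cell markers, Cd4 included, was 0.707 to 2.92 CPM in Tim-4+ TAMs against 4.36 to 11.5 CPM in the Tim-4- subset. The part of T cells in the level of Cd4 was not tested. The likeness was chosen on the same libraries and is a description.

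The IgE receptor was near the lowest level that could be seen, and the IgM receptor was low but passed the count filter. Fcer2a, the CD23 gene (ENSMUSG00000005540.10, chromosome 8, 3681737 to 3694175 in GRCm38, minus strand), had 11, 9, 2 and 5 counts in Tim-4+ TAMs against 8, 16, 12 and 8 counts in the Tim-4- subset, and did not pass the filter of 10 counts in 4 libraries. Without the filter its log2 fold change came to -0.34 (adjusted p 0.881 by edgeR, Benjamini-Hochberg), so no difference was detectable at this depth. Fcmr (ENSMUSG00000042474.6, chromosome 1, 130865669 to 130880791 in GRCm38, plus strand) had 57, 13, 18 and 20 counts in Tim-4+ TAMs against 66, 79, 115 and 20 counts in the Tim-4- subset. It was lower in Tim-4+ TAMs in pairs 784 and 783 and higher in pairs 793 and 779, with a log2 fold change of -0.86 (SE 0.59) and an adjusted p of 0.352. B-cell markers were low in these libraries. The 15 markers summed to 28.1 to 56.1 CPM in Tim-4+ TAMs against 59.1 to 99.4 CPM in the Tim-4- subset, and Cd79b, Blk, Ighm and Jchain were lower in Tim-4+ TAMs, while the other 9 of 13 tested did not pass the test. Their part in the counts of Fcer2a and Fcmr was not tested.

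Set in order by mean CPM per kilobase of exon, the members ran in Tim-4+ TAMs from Fcer1g (788) and Fcgr3 (442) through Fcgr4 (235), Fcgr2b (81.7), Fcgrt (81.5) and Fcgr1 (53.0) to Fcrls (5.20), Fcmr (0.317) and Fcer2a (0.0446). The libraries of neighbors in this order overlapped between Fcgr3 and Fcgr4, between Fcgr2b and Fcgrt and between Fcgrt and Fcgr1, and were separate elsewhere. The order in Tim-4- TAMs was Fcer1g (498), Fcgr3 (246), Fcgrt (134), Fcgr4 (112), Fcgr2b (73.3), Fcgr1 (57.2), Fcrls (44.6), Fcmr (0.553) and Fcer2a (0.0497). There the libraries of every pair of neighbors from Fcgr3 down to Fcrls overlapped. In Tim-4- TAMs the range of Fcrls (32.6 to 72.1) reached into that of Fcgr1 (40.9 to 76.4) through pair 783 alone, and in Tim-4+ TAMs it lay below it (3.05 to 10.1 against 32.1 to 83.2).

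Genes that work with the Fc receptors were taken from 5 lists with 81 genes, of which 72 were tested. In Tim-4+ TAMs 17 were higher and 5 were lower, against 8.97% and 8.43% of all genes, and the median log2 fold change was 0.25 against 0.00 over all genes. The lists were written with results of these data known and were not tested as sets. Among other Fc receptors and Fc receptor-like genes, none of the 5 tested passed the test: Fcrl1, Fcrl5, Fcrla and Fcrlb were each below 1 CPM on average in both subsets, and Trim21, the cytosolic antibody receptor, was at 15.8 ± 3.87 CPM against 17.4 ± 5.76 CPM (SD, n = 4). The mast-cell IgE receptor genes Fcer1a and Ms4a2, which also use the FcRγ chain, did not pass the count filter.

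On the list of partners and adaptors, 5 of 7 tested genes were higher and none was lower, against 8.97% and 8.43% of all genes. Clec4d and Clec4e, C-type lectins that signal through the FcRγ chain, had log2 fold changes of 1.38 (adjusted p 0.00367) and 1.29 (adjusted p 0.0113), from 285 ± 102 against 111 ± 45.9 CPM and 626 ± 495 against 268 ± 218 CPM (SD, n = 4). Pirb, on this list although it is an inhibitory receptor of myeloid cells, had a log2 fold change of 1.02 (adjusted p 0.0130). For Tyrobp, the DAP12 adaptor, it was 0.84 (adjusted p 0.0238), beside B2m above. All adjusted p values for these genes come from the same edgeR fit. Clec4n, another C-type lectin on the list, and Hcst were tested and did not pass the test.

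In proximal activating signaling, 3 of 26 tested genes were higher and 2 were lower (Malt1 was not analysed here). These shares were close to the 8.97% and 8.43% of all genes. Lcp2, the adaptor SLP-76, rose by 1.12 on the log2 scale (adjusted p 0.0104), Gab2 by 0.78 (adjusted p 0.0137) and the Src-family kinase Fgr by 0.64 (adjusted p 0.0219). Src fell by 1.69 (adjusted p 0.0336), from 23.4 ± 12.5 CPM in Tim-4- TAMs to 6.66 ± 2.25 CPM, and Vav2 by 0.49 (adjusted p 0.0318). Syk, the kinase that binds the ITAM, was at 372 ± 77.0 CPM in Tim-4+ TAMs against 262 ± 107 CPM in the Tim-4- subset and did not pass the test (log2 fold change 0.56, adjusted p 0.0596).

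Of 16 inhibitory signaling genes, 4 were higher and 1 was lower, against 8.97% and 8.43% of all genes. The ubiquitin ligase Cblb rose by 0.80 on the log2 scale (adjusted p 0.0354), Ptpn6, the phosphatase SHP-1, by 0.63 (adjusted p 0.0299), and Pag1 by 0.53 (adjusted p 0.0425), while Ubash3b was the fourth. Inppl1, which encodes SHIP-2, fell by 0.70 (adjusted p 0.0286). Inpp5d, which encodes SHIP-1, the phosphatase used by the Fcgr2b product, had a log2 fold change of 0.16 with an adjusted p of 0.478.

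Phagocytic uptake and oxidase genes were higher in 5 of 18 and lower in 2, against 8.97% and 8.43% of all genes. The oxidase subunit Cybb (1.11, adjusted p 0.0168) and the GTPase Rac2 (0.89, adjusted p 0.0107) rose on the log2 scale, and Elmo1 and Was were also among the 5. Cybb was at 2670 ± 907 CPM in Tim-4+ TAMs against 1234 ± 446 CPM in the Tim-4- subset (SD, n = 4). The actin regulators Gsn (-2.32, adjusted p 0.00776) and Coro1a (-1.82, adjusted p 0.00113) fell, from 157 ± 63.2 to 34.8 ± 26.4 CPM and from 248 ± 44.0 to 72.2 ± 23.8 CPM. Without pair 784, 1 of the 72 genes was higher (Clec4d) and 1 lower (Coro1a), and without pair 779 there were 6 higher and 2 lower.

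**Figure D5:**
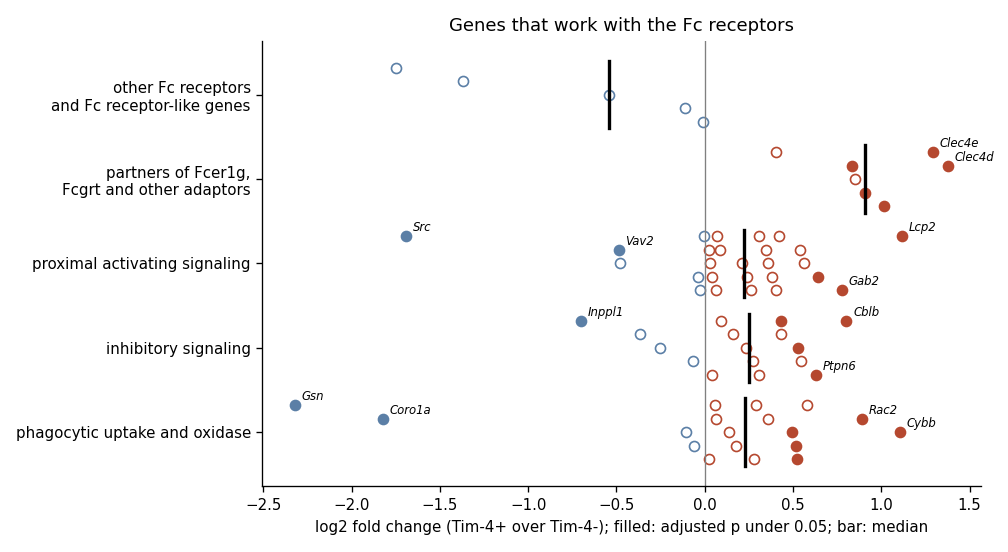
Log2 fold change between Tim-4+ and Tim-4- TAMs (x axis) of the 72 tested genes in 5 lists (y axis), with filled symbols where the adjusted p was under 0.05, a black bar at the median of each list and labels on the 2 largest called rises and falls of each list. Partners and adaptors have the highest median (0.91), and Gsn and Coro1a lie furthest to the left.

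Members that lie near each other did not all move together, and neither did their other neighbors. Fcgr2b, Fcgr4, Fcgr3 and Fcer1g lie within a stretch of chromosome 1 that starts at 170958617 and ends at 171234365 in GRCm38, and the first of them did not pass the test while the others rose. Within 100 kb of a member, 56 other genes were tested, of which 8 were higher and 5 lower, against 8.97% and 8.43% of all genes. None of the genes tested next to Fcgr2b, Fcgr3 and Fcgr4 other than the members themselves was called, whereas Tomm40l (-0.67, adjusted p 0.0412) and Adamts4 (-2.67, adjusted p 0.0413) fell near Fcer1g.

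All 3 genes tested near Fcrls were called, in both directions, against 17.4% of all genes. Cd5l, which encodes a secreted macrophage protein that inhibits apoptosis, lies 94143 bases away and was at 2389 ± 1264 CPM in Tim-4+ TAMs against 384 ± 145 CPM in the Tim-4- subset (SD, n = 4), a log2 fold change of 2.49 (SE 0.37) with an adjusted p of 0.0110. Kirrel, an adhesion molecule 76011 bases away, fell (-2.24, adjusted p 0.0141), and the processed pseudogene Gm10705 rose (1.30, adjusted p 0.00637). Kirrel was at 34.7, 84.2, 47.7 and 126 CPM in Tim-4- TAMs. Near Fcgr1, Sv2a fell (-2.26, adjusted p 0.0179). Rcn3, whose annotation ends 769 bases from Fcgrt, fell (-1.66, adjusted p 0.0158), and Rras rose (0.55, adjusted p 0.0207). In Tim-4- TAMs Kirrel, Sv2a and Rcn3 were lowest in pair 793 and highest in pair 779, as was the tumor and mesothelial marker sum. The part of these cells in the falls of the 3 genes was not tested. Of 9 genes tested near Fcer2a, 5 rose, against 8.97% of all genes, among them Mcemp1 (1.85, adjusted p 0.00875) and Cd209a (2.02, adjusted p 0.0104). Fcer2a itself had almost no counts.

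The calls of the genes named beside the members rested on the pairs too. Of 43 such genes, 5 stayed called without pair 784 (Amz1, Ccr2, Clec4d, Coro1a and Gdf3), 21 without pair 779, 22 without pair 793 and 42 without pair 783, and 8 stayed called without the pair in the fit, among them Ccr2, Cd5l, Coro1a and Gdf3. With total counts per library, Fgr, Cblb, Ptpn6, Pag1, Mertk and Rras were among 10 calls lost, and without the count filter Cd5l, Kirrel, Rcn3, Sv2a and Src were lost. Their directions did not turn under any of these settings.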

How the data were processed

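The files the authors deposited hold counts of reads on each gene, whole and not normalized, for 16 lanes. Total RNA had been depleted of ribosomal RNA and sequenced as stranded paired-end libraries, and per the labels and the submitters' processing notes FastQC 0.11.3, TopHat2 2.0.13, Cufflinks and Cuffdiff 2.2.1 were used with GRCm38 (mm10), whereas the methods name hg19. The read counter and its strand setting are not given in the sources used here, so reads of overlapping antisense genes cannot be told apart (Gm38204 at Fcgr2b had 31 counts and Gm45669 at Fcgrt had 4 in all). The 2 lanes of a library were summed. Reads that did not align uniquely came to 10020232 and 3153643 in the lanes of the Tim-4- library of pair 779, a gap whose cause was not tested. A lane listed by gene symbol (Tim-4-, pair 793) was joined by row order, with 96.9% of symbols matching.

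Genes that reached 10 counts in 4 or more of the 8 libraries were compared with edgeR 4.0.16 in R 4.3.3 (TMM, robust quasi-likelihood test, pair as a block) and Benjamini-Hochberg adjustment. SE is the size of the log2 fold change divided by the square root of F. The pair numbers come from the labels; a supplementary table of the study may carry them in another order, which leaves each pair together but could change which number it has. After subset means were removed, paired libraries had r of 0.277 to 0.498 across genes, which describes the pairing only. Names and coordinates are from GENCODE M21 on GRCm38, with 97.0% of identifiers found, and promoters from RefSeq.

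The members, gene lists (Fc receptor pathway genes and markers of 9 cell types) and tests were chosen with earlier results of these data known. Named genes are the members, the 3 largest rises and falls called in each pathway list, called genes within 100 kb of a member, the 5 genes most like Fcrls and markers that move with a member. Tyrobp, B2m, Syk, Inpp5d, Trim21, Ubash3b, Elmo1, Was, Clec4n and Hcst were named in addition, after their values were seen. A gene that the rule would name is not reported here. Alternatives were DESeq2 1.42.0 and its size factors, total counts, no block, other filters, the second lane alone, a join of the symbol-listed lane by its symbols and each pair left out. Leaving out the symbol-listed lane was added after seeing the data. The fit was also run on simulated counts whose spread was set by hand, not taken from these data. That run does not give an error rate for these data. The study's other experiments were not analysed here.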

Additional observations from a re-analysis of the deposited data

Results flagged for a closer look

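Among 120 groups of 4 libraries examined with Dixon's criterion, 9 held a library far from the other 3, and chance gives about 1 in 20 groups. Fcrls had such a library in both subsets, each time that of pair 783: 23.7 CPM in Tim-4+ TAMs, where the others were at 7.12 to 9.21 CPM, and 168 CPM in Tim-4- TAMs, where the others were at 76.2 to 89.7 CPM. The log2 fold change of Fcrls without pair 783 was -3.33. Amz1, the gene most like Fcrls, had the same library apart in both subsets, at 5.13 CPM in Tim-4+ TAMs against 1.09 to 1.48 CPM and at 34.4 CPM in Tim-4- TAMs against 11.0 to 13.3 CPM. Within Tim-4+ TAMs, pair 783 also stood high for Gsn (74.1 CPM against 17.7 to 24.1 CPM) and Rcn3 (19.0 CPM against 7.79 to 9.21 CPM). The Tim-4+ library of pair 793 was high for Fcmr, at 1.20 CPM against 0.260 to 0.416 CPM. Lcp2 was at 847 CPM in the Tim-4+ library of pair 784 and at 332 to 418 CPM in the others. Fcgr1 made up 21.5% of the Fcγ receptor level per kilobase in the Tim-4- library of pair 784, against 8.66% to 10.8% in the other Tim-4- libraries.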

How the results depend on the processing

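Most calls depended on the pairing and on which pair was left out. With no replicate block, 1 member was called in place of 5, 147 genes were higher and 85 lower in place of 1512 and 1421, and the pathway lists had 0 higher and 1 lower gene in place of 17 and 5; the log2 fold changes were 0.85 for Fcgr3, 1.06 for Fcgr4, 0.66 for Fcer1g and -0.72 for Fcgrt, none past the threshold. With total counts per library, 789 genes were higher and 4903 lower (13.9% of calls higher in place of 51.6%), pathway genes were 9 higher and 19 lower, Fcer1g was at 0.31 and no longer called, Fcgr1 at -0.52 was called and Fcgr2b changed sign to -0.20. DESeq2 with the block called 2194 genes higher and 2328 lower (48.5% of calls higher). Adding a 2-fold change left 2 members. Without each pair in turn, members called ranged from 1 to 5, genes higher from 78 to 1573 and lower from 54 to 1895, pathway genes higher from 1 to 23 and lower from 1 to 6. The log2 fold changes then ranged from 0.76 to 1.003 for Fcgr3, 0.89 to 1.22 for Fcgr4, 0.59 to 0.73 for Fcer1g and -0.80 to -0.56 for Fcgrt. In plain counts, not divided by length, Fcgr2b, Fcgr3 and Fcgr4 made up 28.1%, 46.0% and 17.5% in Tim-4+ TAMs (ratio 2.70) and 37.1%, 37.3% and 12.3% in Tim-4- TAMs (ratio 1.76). The 5 members stayed called with DESeq2 or its size factors, the other count filters, lane 2 only and either change to the symbol-listed lane. The causes of the changes were not tested. With 4 pairs and 2 to 16 counts a library, no difference in Fcer2a could be seen.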

Other observations

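Mast cell and basophil markers were lower in part. Mcpt4 and Kit were lower in Tim-4+ TAMs, 3 more of the 5 tested did not pass the test, and the 8 genes summed to 3.97 to 16.1 CPM in Tim-4+ TAMs against 20.1 to 68.3 CPM in the Tim-4- subset. Kit took most of that sum, with 7.92 ± 5.43 against 30.3 ± 18.7 CPM (SD, n = 4). The median log2 fold change of the 5 tested genes was -3.12. Neutrophil markers summed to 1.66 to 4.18 CPM against 1.78 to 3.27 CPM, eosinophil markers to 0.500 to 0.651 CPM against 0.328 to 0.629 CPM, with Ear1 at 0 counts in every library, and dendritic cell markers to 14.4 to 31.8 CPM against 17.8 to 29.0 CPM. NK cell markers, none of which passed the count filter, summed to at most 0.183 CPM in Tim-4+ TAMs against 0.424 CPM in Tim-4- TAMs. Fcgr3, a gene that NK cells also express, was at 225 CPM or more in these libraries. The part of NK cells in the level of Fcgr3 was not tested.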
